A study of Mus musculus with 30 samples.

Results

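Integrins, collagens and laminins were described in mouse B16F10 melanoma and 6694c2 pancreatic ductal adenocarcinoma (PDAC) cells. Genes were taken whose symbol has the form Itga or Itgb, Col with a chain number, or Lama, Lamb or Lamc, and whose mean was at least 1 CPM (the unit CPM is reads of a gene scaled to the size of the library) over the 12 bulk RNA sequencing libraries of either line. Of 49315 genes counted, 86 had such a symbol and 52 of these passed the minimum, with 20 integrin, 24 collagen and 8 laminin symbols. The other 34 fell under the minimum and are not described. The integrin symbols include Itgb1bp1 and Itgb3bp, whose proteins are named for binding integrin tails and are no integrin subunits.

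Both lines were cultured for 24 h with vehicle or with 1 of 3 agents, namely 100 ng/mL of IFNγ, 1000 U/mL of IFNβ or a STING agonist at 225 μg/mL, and 3 libraries were made in each of the 8 groups. 6694c2 cells are a clone of a tumor from mice with a Pdx-cre driver, a floxed p53 allele and a YFP reporter, among other alleles. B16F10 is an established melanoma line. Each line was grown alone, without stroma, and in these bulk samples a lower share of cells of one kind and less RNA per cell cannot be told apart. The labels do not say that the 3 libraries of a group came from separate cultures, so p-values measure the spread between these libraries, which may be technical.

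Integrins are surface receptors built of 1 alpha and 1 beta subunit, and the pairing sets which ligand is bound. Collagens assemble as triple helices and laminins as trimers of an alpha, a beta and a gamma chain, and members of both families build the basement membrane on which epithelial cells rest. IFNγ and type I interferons such as IFNβ act through different receptors, and STING is a sensor pathway that induces type I interferon.

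Between 15543131 and 32266795 reads per library fell on genes. The 7 melanocyte markers summed to between 14760 and 18600 CPM in B16F10 libraries and to at most 128.6 CPM in 6694c2 libraries, and the 7 ductal epithelial markers to between 12720 and 15140 CPM in 6694c2 and at most 135.6 CPM in B16F10. The 6 fibroblast markers summed to between 7.23 and 12.37 CPM in B16F10, where 1 of them reached a mean of 1 CPM, and to between 0.331 and 1.013 CPM in 6694c2, where 0 did. The 3 endothelial markers summed to at most 0.694 CPM in either line, and the 6 leukocyte markers to at most 7.847 CPM, with 3 of them at a mean of 1 CPM or more in each line and 1 at 0 in 6694c2. All 6 interferon-response genes checked, among them Irf1, Ifit1, Isg15, B2m and Cxcl10, rose with each interferon in both lines and with STING agonist in B16F10. In 6694c2 with STING agonist, 1 of the 6 (Ifit1) rose. Of the melanocyte markers in B16F10, 4 of 7 fell with IFNγ (Pmel, Dct, Tyr and Tyrp1), the same 4 and Mlana fell with IFNβ while Mitf rose, and Mitf fell with STING agonist. Of 6 ductal markers in 6694c2, Krt18 rose and Krt19 fell with IFNγ, and Krt18 and Cdh1 rose and Krt7 and Krt8 fell with IFNβ. The part of these markers in the results that follow was not tested.

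Levels are CPM on TMM-normalized library sizes, and levels of different genes are compared only as CPM per kb of exon. A gene was called changed when its adjusted p (edgeR's quasi-likelihood test, Benjamini-Hochberg over all genes tested) was under 0.05. A gene whose mean was over 10 times lower in a line was kept out of the counts there, and its changes in that line are given apart, as possibly reads carried over from libraries of the other line. This left 37 of the 52 genes for B16F10 and 34 for 6694c2, with 19 in both. For counts of genes within these limits, the share of all genes within the same limits that was called is given as background.

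The vehicle groups were compared to see which adhesion and matrix genes each line expressed without treatment. Higher in 6694c2 were integrin subunits of epithelial cells on basement membrane (Itga3, Itga6, Itgb4, Itga2) and the laminin chain Lamb3. So were the collagen IV chains Col4a1 and Col4a2 and chains of collagens VI and XVIII. The collagen IV chains Col4a4 and Col4a5 went the other way, with Col4a5 at a mean of 23.9 CPM in B16F10 vehicle and 6.79 CPM in 6694c2 vehicle. Higher in B16F10 were Itga4, Itga9, Itga5, Itgb3, Lama4 and many low-level collagens, while Itga6 and Col4a1 were also present in B16F10 and Itga5 and Itgb3 in 6694c2. In all, 23 of the 52 genes were higher in 6694c2 (background 39.2%) and 26 were lower (background 41.3%), and Itgb3bp, Itgb2 and Lamb2 were not called. Only 23 of the 52 genes reached 1 CPM in both lines, so most entered through 1 line and these counts describe genes chosen on their levels in these libraries.

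**Figure D1:**
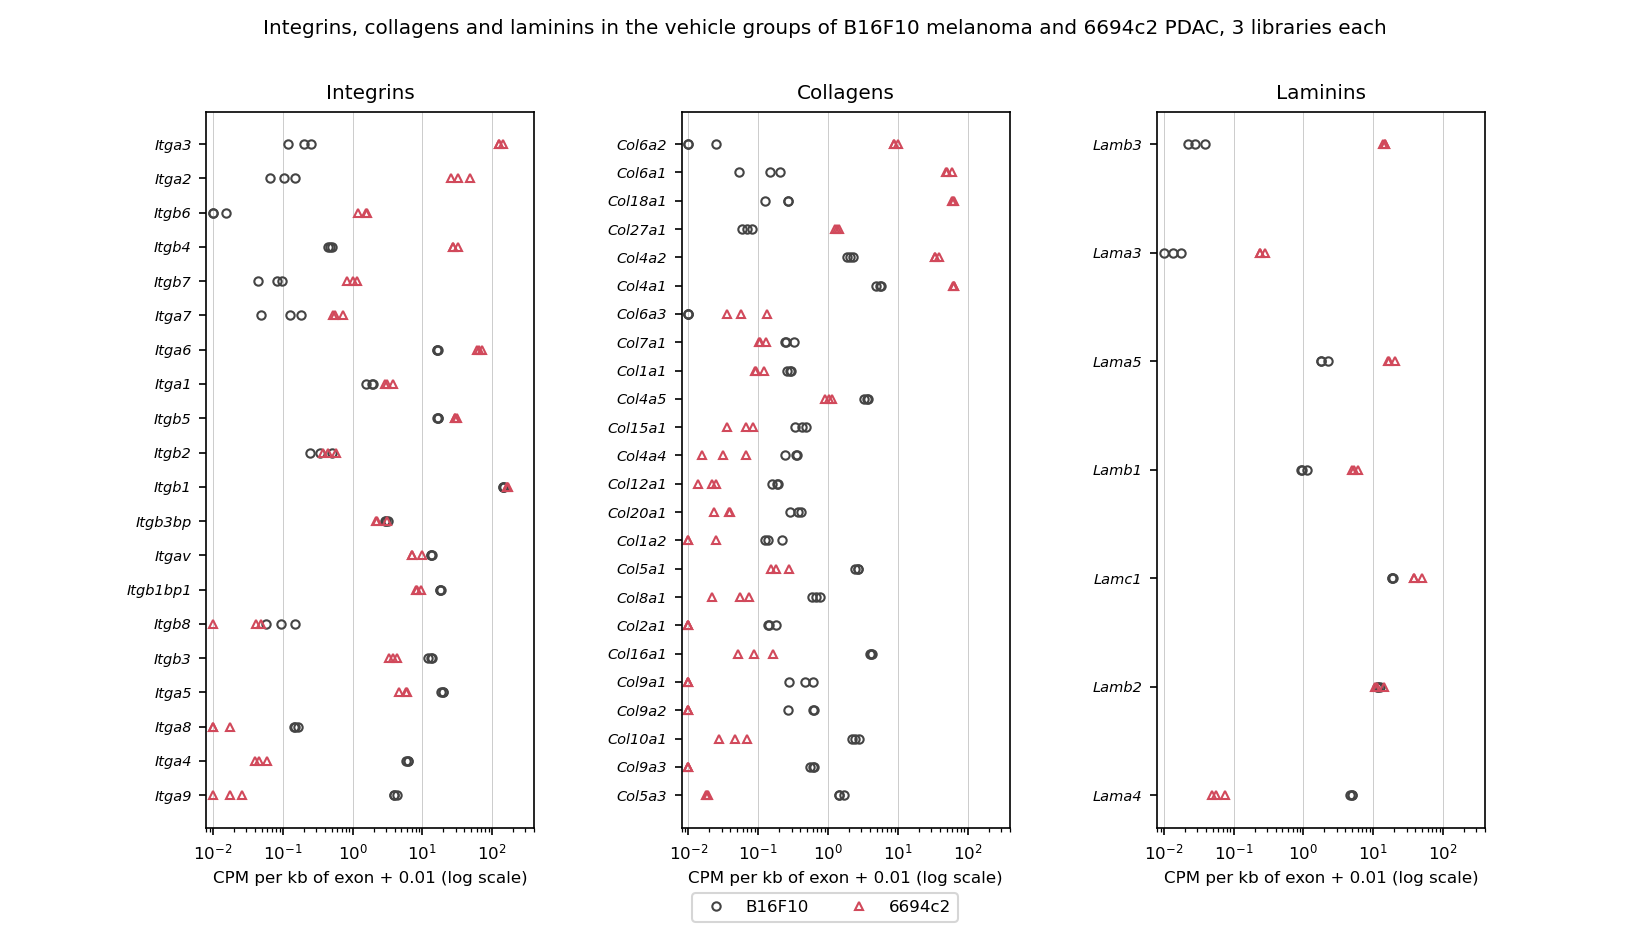
Level of each named gene in the 3 vehicle libraries of B16F10 (circles) and 6694c2 (triangles), as CPM per kb of exon plus 0.01 on a log axis, ordered by the difference between lines. Itgb1 lies at 144 in B16F10 and 166 in 6694c2, while Itga3, Lamb3 and Col6a2 lie far to the right in 6694c2 and Itga9, Itga4 and Lama4 far to the right in B16F10.

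Itgb1, the beta subunit shared by most matrix-binding integrins, had the highest level of the 52 genes per kb in both vehicle groups, 144 ± 1.9 CPM per kb in B16F10 and 166 ± 2.9 in 6694c2 (SD, n = 3). In 6694c2 the next highest was Itga3, the alpha subunit of a laminin receptor, at 133 ± 11 CPM per kb, followed by Itga6 at 65.7 ± 6.0. Itgb1, Itga3 and Itga6 differ from each other by more than their SD, while Itga6, Col4a1 and Col18a1 lie within the SD of Itga6. In B16F10 the alpha subunits with the highest level per kb were Itga5 (19.3 ± 0.74), the fibronectin receptor subunit, Itga6 (16.4 ± 0.33) and Itgav (13.5 ± 0.34). Itga3 was at 0.182 ± 0.070 CPM per kb there.

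Itga3 stood at 829, 718 and 722 CPM in the 6694c2 vehicle libraries and at 0.618, 1.41 and 1.1 CPM in those of B16F10, a log2 difference of 9.47 (SE 0.15, adjusted p = 8.95e-38). Itgb4, which pairs with Itga6 in hemidesmosomes, stood at 224, 195 and 194 CPM against 3.09, 3.26 and 3.49 CPM. Its partner Itga6 differed far less, with 651, 584 and 544 CPM against 145, 151 and 148 CPM, a log2 difference of 2.00 (SE 0.068). Itgb6, an epithelial partner of Itgav, had 532 reads in the 3 vehicle libraries of 6694c2 and 1 read in those of B16F10. Every 6694c2 library lay above every B16F10 library for these genes.

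Itga4 and Itga9, closely related alpha subunits that bind VCAM-1 and tenascin among other ligands, went the other way. Itga4 stood at 81.1, 88.1 and 88.2 CPM in B16F10 and at 0.694, 0.497 and 0.424 CPM in 6694c2, a log2 difference of -7.30 (SE 0.178). Itga9 stood at 30.4, 30.5 and 33.2 CPM in B16F10, against 3 reads in the 3 libraries of 6694c2, a ratio of 544 with a 95% counting interval of 186 to 2641. Itgb7, another partner of Itga4 known from lymphocytes, was low in both vehicle groups, at 3.18, 2.76 and 2.24 CPM in 6694c2 and 0.095, 0.242 and 0.196 CPM in B16F10.

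Among the laminin chains, the beta chain Lamb3 is known as a partner of the alpha chain Lama3. In 6694c2 vehicle cells Lamb3 was at 14.4 ± 0.49 CPM per kb, while Lama3 was at 0.242 ± 0.024 CPM per kb. The alpha chain was below this partner by more than their SD. Lamc1, Lama5 and Lamb1, the chains of another epithelial laminin, were at 42.6 ± 7.1, 17.7 ± 2.2 and 5.48 ± 0.56 CPM per kb in 6694c2. B16F10 cells had Lamc1 at 18.7 ± 0.42 and Lamb2 at 11.8 ± 0.58 CPM per kb, with Lama4, an alpha chain of mesenchymal and vascular basement membranes, at 4.87 ± 0.20. Lama4 was at 0.0498 ± 0.014 CPM per kb in 6694c2. Lamb2 was not called, with 68.5, 75.5 and 71.6 CPM in B16F10 and 85.7, 63.7 and 68.8 CPM in 6694c2 (log2 difference 0.02, SE 0.092, adjusted p = 0.896).

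The collagens of 6694c2 were few and abundant. Col4a1 (63.3 ± 0.95 CPM per kb), Col18a1 (61.9 ± 2.0), Col6a1 (53.0 ± 5.3) and Col4a2 (35.3 ± 2.9) had the highest levels in its vehicle group, and Col4a1 and Col18a1 lay within their SD of each other. Col6a3, the third chain of the collagen VI trimer, was at only 0.0657 ± 0.053 CPM per kb, against 9.24 ± 0.59 for Col6a2. In B16F10 the highest collagen levels per kb were Col4a1 (5.34 ± 0.41), Col16a1 (4.11 ± 0.18) and Col4a5 (3.56 ± 0.25). The fibrillar chains Col1a1 and Col1a2, the main collagen of fibroblasts, were low in both lines, with group means between 0 and 2.41 CPM over the 8 groups.

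Several genes had few or no reads in a line, for which a bound or a counting interval is given in place of a fitted ratio. No read of Col9a1, Col9a2, Col9a3 or Col2a1 was counted in the 6694c2 vehicle libraries, and against a floor of 3 reads over the group these genes were at least 38.6-fold, 26-fold, 39.1-fold and 15-fold lower there than in B16F10. No read of Col6a3 was counted in the B16F10 vehicle libraries, so it was at least 18.8-fold lower there. Intervals and floors cover counting error only. The remaining genes of the 10 with the largest differences were Lamb3 (log2 difference 9.50), Col6a1 (8.65), Itga2 (8.44) and Col18a1 (8.16), all higher in 6694c2. In B16F10 vehicle libraries they stood at 0.167%, 0.328%, 0.258% and 0.394% of their mean over all 12 libraries of 6694c2. The median share of 182 other genes specific to 6694c2 was 0.226% there. In 6694c2 vehicle libraries Itga4 stood at 0.737% of its B16F10 mean, and 143 genes specific to B16F10 had a median of 0.574%. In all these vehicle comparisons, values of a line over 10 times lower are possibly reads carried over from the other line. This was not tested. Col6a2 had 3994 reads in the 6694c2 vehicle libraries and 3 in those of B16F10.

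IFNγ lowered more of these genes than it raised in B16F10. Of the 37 counted, 12 fell (background 18.5%) and 4 rose (background 19.1%), with a median log2 change of -0.17 against -0.0044 over all genes within the limits. The smallest p was that of Itga4, and Itga4 and Col9a1 fell over 2-fold. By family, 7 of 15 integrin genes, 4 of 17 collagens and 1 of 5 laminins fell.

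Itga4 stood at 81.1, 88.1 and 88.2 CPM with vehicle and at 38.7, 42.2 and 35.4 CPM with IFNγ, a 2.21-fold decrease (log2 change -1.15, SE 0.068, adjusted p = 7.27e-47). The libraries of the 2 groups did not overlap. Over 8.04% of its exon bases Itga4 overlaps Cerkl on the other strand, a gene at 0.864 CPM. Its relative Itga9 fell from 30.4, 30.5 and 33.2 CPM to 19.6, 22.7 and 21.9 CPM (log2 change -0.56, SE 0.085, adjusted p = 3.64e-09). Itga6, the laminin receptor subunit, fell from 145, 151 and 148 CPM to 107, 105 and 110 CPM (log2 change -0.46, SE 0.058, adjusted p = 3.18e-13). In each of these genes every IFNγ library lay below every vehicle library.

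Of the beta subunits in B16F10, Itgb1, Itgb3 and Itgb5 fell with IFNγ by 0.20, 0.22 and 0.21 on the log2 scale, which are changes of at most 1.16-fold. Itgb3, the partner of Itgav in the vitronectin receptor, stood at 70.5, 77.7 and 82.0 CPM with vehicle and 59.1, 75.7 and 63.8 CPM with IFNγ, so its groups overlapped. Its call was lost without vehicle replicate 3 or IFNγ replicate 1 (adjusted p up to 0.214), and that of Itgb5 without IFNγ replicate 2 (adjusted p = 0.156). Itga1, a collagen receptor subunit, fell by 0.39 on the log2 scale with overlapping groups, and its call was lost under DESeq2 and without vehicle replicate 2, vehicle replicate 3 or IFNγ replicate 3 (adjusted p up to 0.295).

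Itga5 rose with IFNγ in B16F10, from 81.9, 87.4 and 87.7 CPM to 101, 108 and 98.4 CPM (log2 change 0.26, SE 0.060, adjusted p = 2.38e-04). Fn1, the gene of its ligand fibronectin, rose in the same comparison from a mean of 52.0 to 106 CPM. Lamb2 rose by 0.25 on the log2 scale and Col8a1 by 0.69, and Itga7 rose from 0.475, 0.685 and 0.157 CPM to 1.02, 1.03 and 1.01 CPM. Without vehicle replicate 3 the adjusted p of Itga7 was 0.248, and without IFNγ replicate 2 that of Lamb2 was 0.109.

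Among the collagens of B16F10, Col5a3, a fibrillar chain, fell from 11.4, 9.63 and 9.85 CPM to 6.11, 6.90 and 5.38 CPM with IFNγ (log2 change -0.74, SE 0.13, adjusted p = 3.33e-07). Col9a1 fell from 2.33, 1.33 and 3.02 CPM to 1.09, 0.845 and 0.617 CPM, and Col10a1 and Col15a1 fell by 0.51 and 0.76 on the log2 scale. Col15a1 was not called without vehicle replicate 3 or IFNγ replicate 3 (adjusted p up to 0.109). Lamc1, the gamma chain of most laminins, was the 1 laminin that fell, from 152, 158 and 153 CPM to 130, 133 and 131 CPM (log2 change -0.23, SE 0.057).

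**Figure D2:**
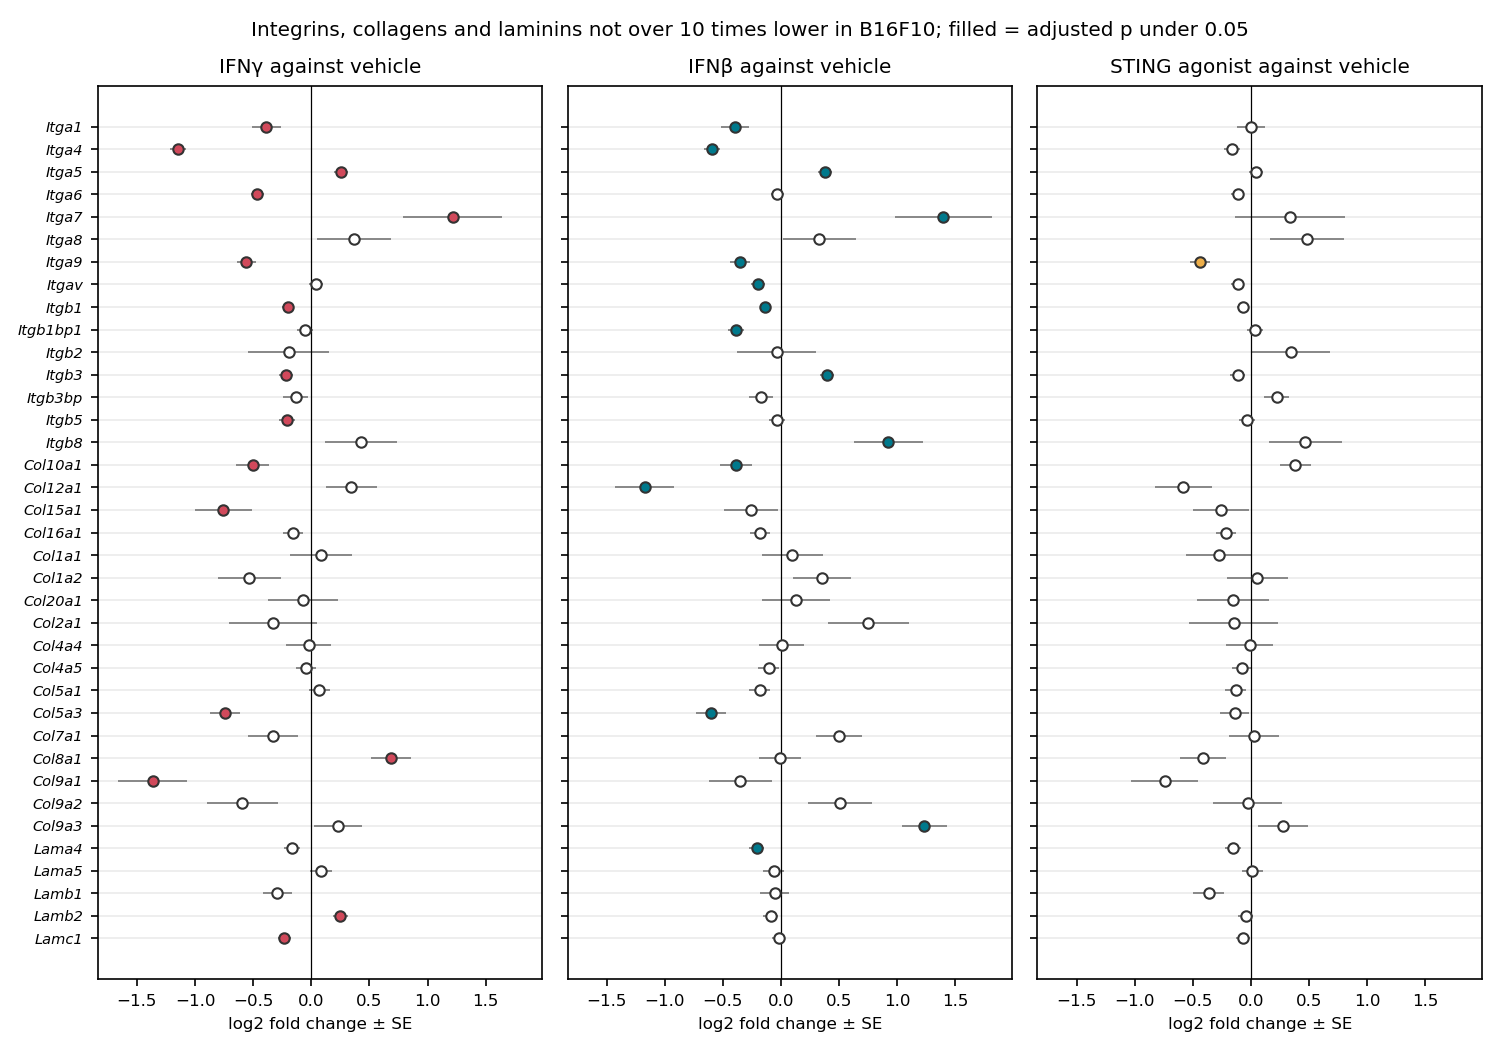
Log2 fold change against vehicle with its SE for the 37 genes counted in B16F10, with IFNγ, IFNβ and STING agonist from left to right. Filled points are called at an adjusted p under 0.05: 16 with IFNγ, 15 with IFNβ and Itga9 alone with STING agonist.

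IFNβ in B16F10 lowered Itga4 and Itga9 as well, and raised Itgb3 and Itga5. Of the 37 genes, 10 fell (background 19.4%) and 5 rose (background 20.8%), with a median log2 change of -0.06 against 0.02 over all genes within the limits. Both interferon comparisons use the same 3 vehicle libraries. Itga4 fell to 60.5, 61.0 and 49.0 CPM (log2 change -0.60, SE 0.066, adjusted p = 2.94e-16) and Itga9 to 22.9, 27 and 23.7 CPM (log2 change -0.35, SE 0.084), again with no overlap with vehicle.

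Itgb3 rose with IFNβ, to 97.4, 104 and 102 CPM, above all vehicle libraries (log2 change 0.40, SE 0.063, adjusted p = 1.78e-08). Itga5 rose to 108, 113 and 114 CPM (log2 change 0.38, SE 0.060, adjusted p = 1.68e-08). Itgav fell by 0.20 on the log2 scale, with IFNβ replicate 3 at 106 CPM against 141 and 132 CPM in the others, and was not called without that library (adjusted p = 0.306). Itgb8, a partner of Itgav that can activate TGFβ, rose from a mean of 1.01 to 1.95 CPM and was not called without vehicle replicate 1 or without IFNβ replicate 2 (adjusted p up to 0.159). Itgb1 fell by 0.13 on the log2 scale, a call lost under 5 of 13 alternatives, among them the fits without each vehicle replicate and without IFNβ replicate 2 (adjusted p up to 0.129).

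Itgb1bp1, the integrin tail-binding protein, fell with IFNβ from 59.7, 59.2 and 60.5 CPM to 45.6, 44.4 and 47.0 CPM (log2 change -0.39, SE 0.068, adjusted p = 3.05e-07). It shares 12.1% of its exon bases with Asap2 on the other strand, and reads of the pair cannot be told apart where strand was not used in counting. The 3 chains of collagen IX, a cartilage collagen, differed in their calls. Col9a3 rose from 2.42, 2.05 and 2.32 CPM to 5.28, 5.06 and 5.60 CPM (log2 change 1.23, SE 0.19, adjusted p = 1.1e-08), while Col9a1 and Col9a2 were not called against vehicle. Col12a1, a fibril-associated collagen, fell from 2.76, 2.22 and 2.71 CPM to 1.26, 1.31 and 0.811 CPM, and Col5a3 fell to 6.38, 6.88 and 6.98 CPM (log2 change -0.60, SE 0.13). The remaining calls were Itga7 (higher), Itga1, Col10a1 and Lama4 (lower). Itga7 was lost without vehicle replicate 3 (adjusted p = 0.116), Itga1 without vehicle replicate 2 (0.0588), Lama4 without vehicle replicate 1 or 2 (up to 0.0644), and Col10a1 without vehicle replicate 1, vehicle replicate 3 or IFNβ replicate 2 (up to 0.168).

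Each interferon was given at 1 dose, in different units, so in either line interferon and dose cannot be told apart. Set against each other in B16F10, 10 genes were higher with IFNβ than with IFNγ and 6 were lower, of 37 (background for either direction 24%). Itgb3 had the smallest p and was higher with IFNβ by 0.61 on the log2 scale (SE 0.064, adjusted p = 4.52e-18), and every IFNβ library lay above every IFNγ library. Itga4 was higher with IFNβ by 0.55 and Itga6 by 0.43. The 3 collagen IX chains Col9a1, Col9a2 and Col9a3 were each higher with IFNβ than with IFNγ, by 1.01, 1.1 and 1.0 on the log2 scale, at levels of 0.617 to 5.60 CPM. Col9a1 was not called without IFNγ replicate 3 or IFNβ replicate 3 (adjusted p up to 0.0879). Col12a1 was lower with IFNβ, with a log2 difference of -1.52 (SE 0.25). It stood at 2.95, 3.66 and 3.17 CPM with IFNγ and was not called against vehicle there.

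In 6694c2 cells IFNγ raised Itgb7, an integrin beta subunit known from lymphocytes, 12.6-fold, while the laminin chain Lamb3 and 3 collagens fell. Of 34 genes counted, 4 rose (background 13.2%) and 7 fell (background 9.62%), with a median log2 change of -0.08 against -0.0061 over all genes within the limits. Beside Itgb7, Col6a3, Itga3 and Itga2 rose. Lamb3, Col6a1, Col6a2, Col18a1, Itgb3 and Itgb5 were among those that fell.

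Itgb7 (chr15:102215995-102231935 on GRCm38, minus strand) stood at 3.18, 2.76 and 2.24 CPM with vehicle and at 32.3, 33.2 and 37.9 CPM with IFNγ, the largest change among the 34 genes (log2 change 3.66, SE 0.14, adjusted p = 1.09e-24). The counts behind these levels were 37 to 55 reads per vehicle library and 543 to 1111 per IFNγ library. No other gene with at least 10 reads over the 24 libraries overlaps its exons. The partners that it is known to pair with were scarce: Itga4 was at 0.558, 0.855 and 0.239 CPM with IFNγ in 6694c2, and Itgae was under the minimum, at a mean of 0.176 CPM over the 6694c2 libraries. In the same comparison Icam1, a ligand of other leukocyte integrins, rose from a mean of 25.1 to 119 CPM. Vcam1, a ligand of integrins that contain Itga4, rose from a mean of 234 to 287 CPM. The 6694c2 leukocyte marker sum was at most 6.309 CPM in any library.

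The chains of collagen VI moved in opposite directions. Col6a1 fell from 259, 215 and 222 CPM to 124, 148 and 133 CPM (log2 change -0.78, SE 0.072, adjusted p = 9.31e-12) and Col6a2 from 82.6, 73.7 and 74.5 CPM to 45, 48.1 and 49.6 CPM (log2 change -0.69, SE 0.072). These neighbouring genes lie at chr10:76708792-76726168 and chr10:76595762-76623630. Col6a3, on chromosome 1, rose from 1.5, 0.552 and 0.303 CPM to 2.46, 6.17 and 4.64 CPM (log2 change 2.48, SE 0.34, adjusted p = 3.27e-07), on 5 to 26 reads per vehicle library and 44 to 136 per IFNγ library. Its 3 IFNγ libraries lay above the vehicle libraries but spread widely, and without vehicle replicate 1 the log2 change was 3.34.

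**Figure D3:**
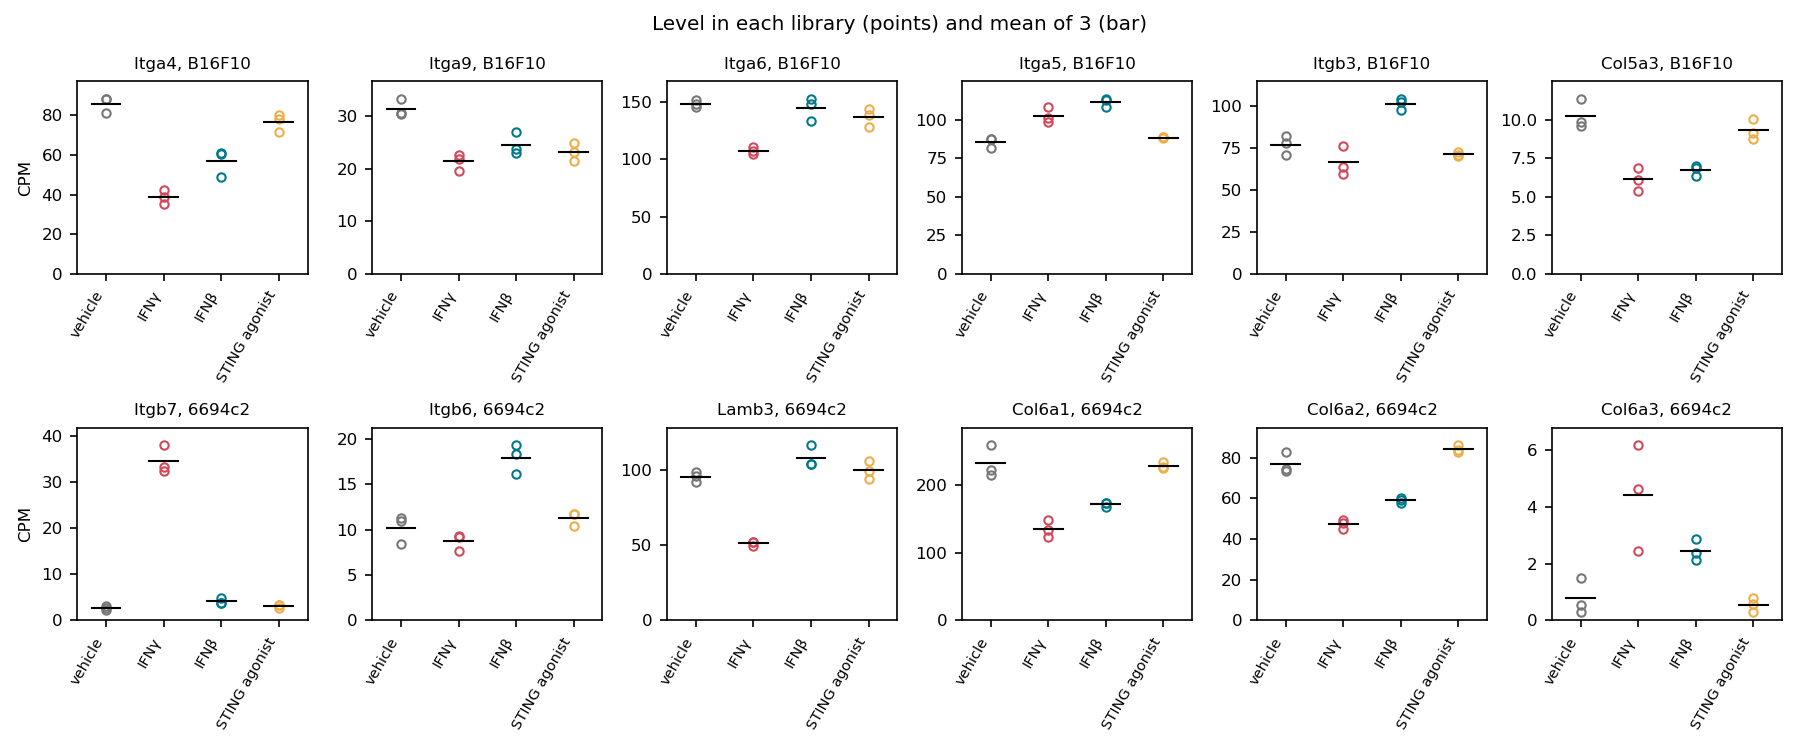
Level in CPM of 6 genes in B16F10 (upper row) and 6 genes in 6694c2 (lower row) in each of 3 libraries per treatment (points), with the mean as a bar and axes starting at 0. Itgb7 in 6694c2 stood at 32.3 to 37.9 CPM with IFNγ and at 2.24 to 4.84 CPM in the other groups, and the STING agonist libraries of 6694c2 sat near vehicle in all 6 genes.

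The laminin beta chain Lamb3 fell with IFNγ in 6694c2, from 98.5, 92.0 and 95.9 CPM to 49.6, 52.3 and 52.3 CPM (log2 change -0.89, SE 0.073, adjusted p = 2.08e-13). Every IFNγ library of Lamb3 lay below every vehicle library. Its partner Lama3, at 2.89, 2.43 and 2.48 CPM with vehicle and 1.95, 2.87 and 2.76 CPM with IFNγ, was not called. Itga3, a receptor subunit for laminins, rose from 829, 718 and 722 CPM to 888, 1027 and 1034 CPM (log2 change 0.38, SE 0.068, adjusted p = 4.32e-05). Itgb4 stood at 224, 195 and 194 CPM with vehicle and at 209, 232 and 235 CPM with IFNγ, and was not called.

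Itgb3 in 6694c2 fell with IFNγ from 25.2, 19.9 and 22 CPM to 13.1, 11.8 and 14.6 CPM (log2 change -0.75, SE 0.10, adjusted p = 2.88e-07), and Itgb5 from 97.2, 98.8 and 104 CPM to 80.6, 78.6 and 82.9 CPM (log2 change -0.31, SE 0.069). Both fell in B16F10 too. Itga2, the collagen receptor subunit, stood at 201, 135 and 107 CPM with vehicle, and at 204, 259 and 236 CPM with IFNγ. Its log2 change of 0.66 (SE 0.12) was not called in a robust quasi-likelihood fit (adjusted p = 0.118). Col18a1 fell by 0.22 on the log2 scale and was not called without IFNγ replicate 1 (adjusted p = 0.127). Without vehicle replicate 1, in which Itga2, Itgav, Lamc1, Lama5 and Lamb2 had their highest vehicle values, 7 genes in place of 4 were called higher. The additional ones were Itgb4, Lamb2 and Lamc1.

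**Figure D4:**
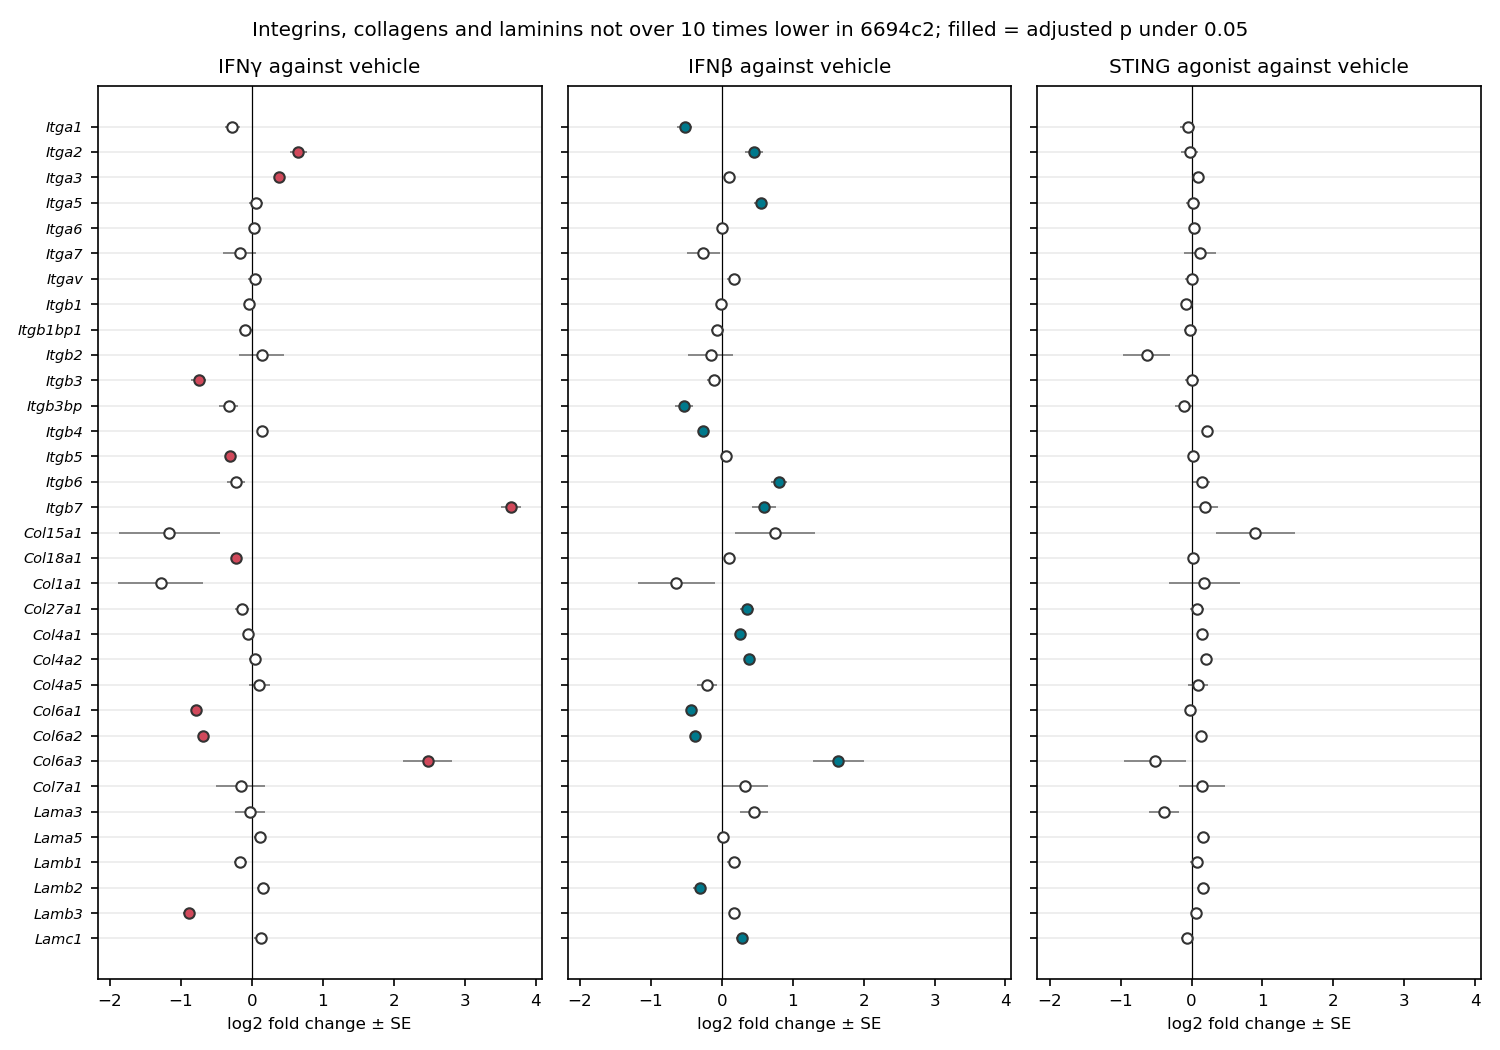
Log2 fold change against vehicle with its SE for the genes counted in 6694c2, 1 of the 34 not drawn, with IFNγ, IFNβ and STING agonist from left to right. Filled points are called, with Itgb7 at 3.66 with IFNγ, 15 filled with IFNβ and 0 with STING agonist.

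In 6694c2, IFNβ raised Itgb6, Itga5 and collagen IV and lowered Col6a1, Col6a2 and Itga1. Of 34 genes, 9 rose (background 17.5%) and 6 fell (background 13.2%), with a median log2 change of 0.10 against 0.02 over all genes within the limits. The change with the smallest p was that of Itgb6, which as a partner of Itgav binds latent TGFβ. It rose from 11.3, 10.9 and 8.42 CPM to 18.3, 19.3 and 16.2 CPM (log2 change 0.81, SE 0.12, adjusted p = 6.82e-07). With IFNγ it stood at 9.27, 7.70 and 9.21 CPM and was not called.

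Itga5 rose with IFNβ in 6694c2 from 26, 20.7 and 27.1 CPM to 34.4, 37.9 and 35.7 CPM (log2 change 0.55, SE 0.094, adjusted p = 1.71e-05), so it rose with IFNβ in both lines. Its ligand gene Fn1 fell in 6694c2, from a mean of 87.8 to 62.4 CPM. Itga1 fell with IFNβ in both lines, here from 22.5, 17.4 and 18.8 CPM to 14, 13.3 and 13.5 CPM (log2 change -0.52, SE 0.11, adjusted p = 2.82e-04). Itgb7 rose to 3.84, 4.84 and 3.85 CPM (log2 change 0.60, SE 0.17), a call lost without vehicle replicate 3 or IFNβ replicate 2 (adjusted p up to 0.0724). Itgb4 fell by 0.27 on the log2 scale and was not called without vehicle replicate 1 or IFNβ replicate 3 (adjusted p up to 0.0559).

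Both main chains of basement membrane collagen IV rose with IFNβ. Col4a2 rose from 256, 222 and 223 CPM to 305, 325 and 285 CPM (log2 change 0.38, SE 0.073, adjusted p = 9.50e-05) and Col4a1 from 480, 472 and 466 CPM to 527, 623 and 541 CPM (log2 change 0.25, SE 0.067, adjusted p = 0.0045). Col4a1 was not called without IFNβ replicate 2, its highest library (adjusted p = 0.0802). The genes lie head to head at chr8:11198423-11312826 (minus strand) and chr8:11312805-11449287 (plus strand), and their exons share 22 bases. Col6a1 and Col6a2 fell with IFNβ by 0.43 and 0.38 on the log2 scale. Col6a3 rose to 2.86, 2.12 and 2.39 CPM (log2 change 1.64, SE 0.36). Without vehicle replicate 1, its highest vehicle library, the log2 change was 2.50. Col27a1, a fibrillar collagen, rose from 16.5, 18.4 and 17.7 CPM to 23.7, 22.2 and 21.1 CPM (log2 change 0.35, SE 0.098).

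Among the laminins of 6694c2, Lamc1 rose by 0.29 with IFNβ and Lamb2 fell by 0.31 on the log2 scale, both with overlapping groups. The call of Lamc1 was lost under 7 of 13 alternatives (adjusted p up to 0.259) and that of Lamb2 in a robust fit and without vehicle replicate 1 (up to 0.152). Itga2 rose by 0.46 with overlapping groups and was lost under 5 of 13, among them the fits without vehicle replicate 3 and without IFNβ replicate 1 (up to 0.259). Itgb3bp, a centromere protein by its other role, fell by 0.53. It shares 8.59% of its exon bases with Pgm1 on the other strand, a gene at 176 CPM, and was not called without vehicle replicate 3 (adjusted p = 0.0886).

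Compared directly in 6694c2, 14 of 34 genes were higher with IFNβ than with IFNγ and 5 were lower (background for either direction 23%). Itgb7 was lower with IFNβ, a log2 difference of -3.06 (SE 0.12, adjusted p = 1.61e-23). Lamb3 was higher with IFNβ by 1.07 (SE 0.072), Itgb6 by 1.03 (SE 0.12) and Itgb3 by 0.64 on the log2 scale, each with no overlap between the libraries. Col6a1, Col6a2, Col4a1 and Col4a2 were higher with IFNβ by 0.31 to 0.35. The lower value of Col6a3 with IFNβ was lost under 7 of 12 alternatives, among them the fits without replicate 2 or 3 of either interferon (adjusted p up to 0.264).

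Promoter sequence was examined for genes called with an interferon. RefSeq (GRCm38.p6) promoters, from 250 bases before to 50 after a start, were found for 28 of these 37 genes, 34 promoters in all. The letters TTCNNNGAA, the core of the gamma-activated site, and GAAANNGAA, part of the interferon-stimulated response element, were searched on both strands. The first was found in 2 of the 34 promoters and in 8.30% of all 32851 promoters, and the second in 3 and in 8.56%. The upstream sequence of Itgb7, the gene with the largest change in 6694c2, holds neither and is shown in full for its change. The 3 matches that lie outside annotated exons are shown with 20 bases on each side and the match in capitals. Itgb7 is from chr15:102231936-102232185 (minus strand), Col27a1 from chr4:63215174-63215222, Itgav from chr2:83724187-83724235 and Lamb2 from chr9:108479634-108479682 (all plus strand).
Itgb7: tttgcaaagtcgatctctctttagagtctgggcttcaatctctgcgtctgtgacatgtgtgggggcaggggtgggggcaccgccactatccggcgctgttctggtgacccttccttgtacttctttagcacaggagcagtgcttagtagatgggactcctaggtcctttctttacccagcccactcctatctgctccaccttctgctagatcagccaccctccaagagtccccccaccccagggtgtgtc
Col27a1: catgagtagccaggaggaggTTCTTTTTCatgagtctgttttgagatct
Itgav: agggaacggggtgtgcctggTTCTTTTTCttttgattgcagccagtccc
Lamb2: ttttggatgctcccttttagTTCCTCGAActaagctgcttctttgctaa

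The matches in Col27a1 and Itgav are to GAAANNGAA on the opposite strand, and that in Lamb2 is to TTCNNNGAA. They start at positions -218, -190 and -208, counted from the RefSeq start of each promoter. In the gene models of the counts, Col27a1 and Lamb2 start elsewhere, at chr4:63214004 and chr9:108479736. Col27a1 rose with IFNβ in 6694c2, Itgav fell with IFNβ in B16F10, and Lamb2 rose with IFNγ in B16F10 and fell with IFNβ in 6694c2. Further matches lie inside exons, of TTCNNNGAA in the promoter of Itgb3bp (an exon of Efcab7) and of GAAANNGAA in a promoter of Itga3 and, starting 2 bases before the start, in Col27a1. These matches are descriptions of the sequence, and binding was not measured.

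The STING agonist changed 1 of the counted genes. In B16F10, Itga9 fell from 30.4, 30.5 and 33.2 CPM to 21.5, 23.2 and 24.9 CPM (log2 change -0.44, SE 0.086, adjusted p = 7.27e-05), with no overlap between the groups, and 0 of 37 genes rose by edgeR (backgrounds 2.69% lower and 2.12% higher). Itga9 fell with all 3 treatments in this line, each against the same vehicle libraries. An unadjusted p under 0.05 was found for 11 of the 37 genes (29.7%), against 17.7% of all genes within the limits. Itga4 stood at 71.7, 80.3 and 78.0 CPM with STING agonist (log2 change -0.16, SE 0.066, adjusted p = 0.204), 95% interval -0.29 to -0.03.

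In 6694c2, 0 of 34 genes were called with STING agonist in either direction (backgrounds 0.367% higher and 0.102% lower). By edgeR, 3 of the 34 had an unadjusted p under 0.05, namely Itgb4 (log2 change 0.22, adjusted p = 0.288), Col4a2 (0.20) and Col4a1 (0.14). DESeq2 also called 0. Itgb7 stood at 3.39, 2.72 and 3.29 CPM with STING agonist. Itgb1 stood at 661, 638 and 626 CPM, against 691, 667 and 677 CPM with vehicle, with a 95% interval of -0.20 to 0.04 for the log2 change.

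The effects in both lines were compared as interactions over the 19 genes that were over 10 times lower in neither. For IFNγ, 3 effects differed between the lines (background 16.4%). Itga6 fell in B16F10 and stood at 578, 644 and 597 CPM in 6694c2 against 651, 584 and 544 CPM with vehicle, an effect higher by 0.49 in 6694c2 (SE 0.094, adjusted p = 2.31e-04). Itgb3 fell further in 6694c2, by a log2 difference of -0.53 (SE 0.13, adjusted p = 0.0036), and Itga7 differed by -1.40. For IFNβ, 3 effects also differed (background 21.6%). Itgb3 rose in B16F10 and stood at 21.4, 21.4 and 19.5 CPM in 6694c2, a difference of -0.50 (SE 0.12, adjusted p = 0.0033). Itga7 differed by -1.66 and Itgb1bp1 by 0.33. For the STING agonist, 0 of 19 effects were called different by edgeR (background 2.11%), with 3 at an unadjusted p under 0.05, and 0 by DESeq2.

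Genes that were over 10 times lower in B16F10 than in 6694c2 are given apart. Of these 15 genes, 7 were called higher there with STING agonist, among them Itga3, Itga2, Col18a1, Col6a1, Col6a2 and Lamb3, and 0 lower. The share called of all genes over 10 times lower in a line was not counted, so counts of such genes have no background. Itga3 stood at 0.618, 1.41 and 1.1 CPM with vehicle and at 8.26, 6.17 and 6.51 CPM with STING agonist (log2 change 2.71, SE 0.23, adjusted p = 1.88e-25), and Itga2 at 0.238, 0.403 and 0.589 CPM and at 1.85, 1.54 and 2.12 CPM. As a share of their own mean over all 12 libraries of 6694c2, these 6 named genes stood at 0.808% to 1.18% with STING agonist. Over 182 other genes specific to 6694c2, the median share in the same libraries was 1.03% ± 0.13 (SD, n = 3) with STING agonist, against 0.226% ± 0.038 with vehicle. Itga3 stood at 0.965% and 0.142%. Whether these reads came from B16F10 cells was not tested.

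**Figure D5:**
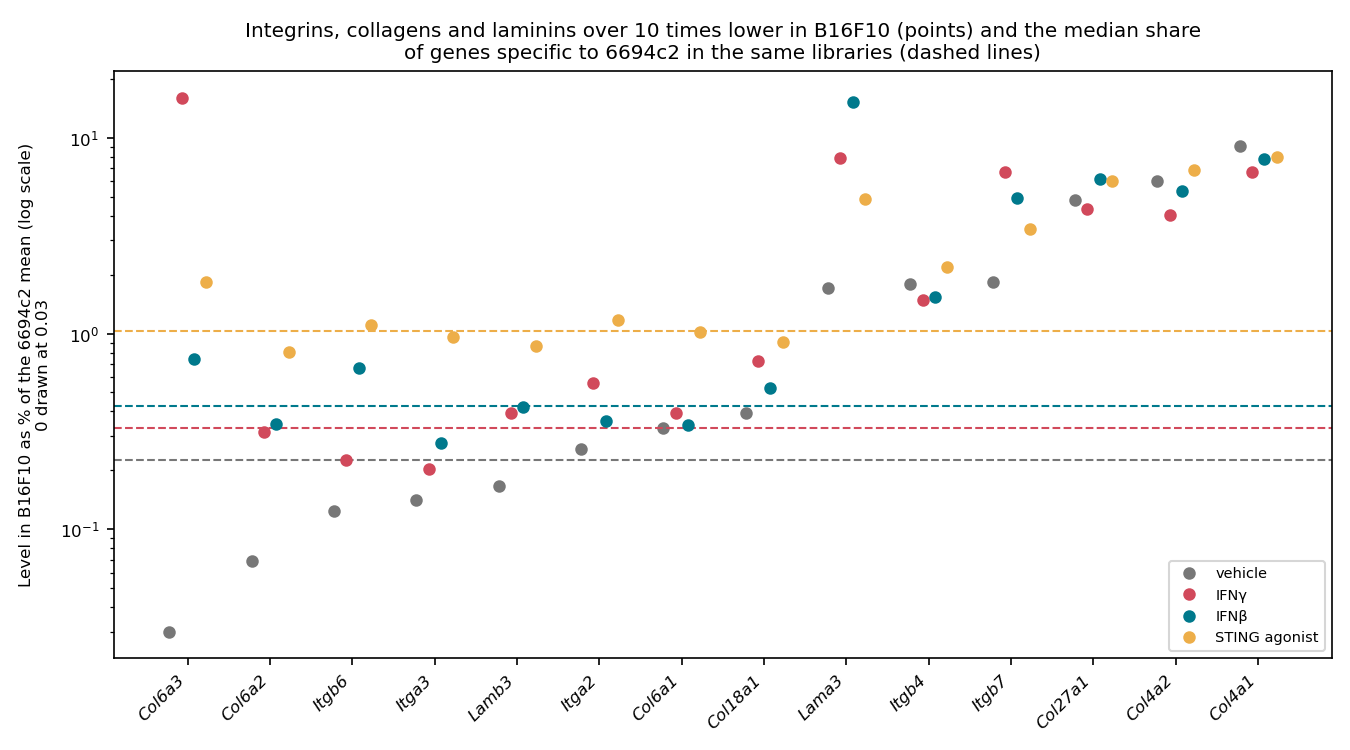
Mean level in B16F10 of the genes over 10 times lower there (1 of the 15 not drawn), by treatment (points). Levels are a percent of the gene's mean over all 12 libraries of 6694c2, on a log axis. Dashed lines in the same colors are the mean over libraries of the median share of 182 genes specific to 6694c2. With STING agonist, Itga3, Itga2, Lamb3, Col6a1 and Col6a2 lie near the dashed line at 1.03%, while Col6a3 with IFNγ lies at 16%.

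Further genes of this set were called with the interferons. Col6a3 had 0 reads in the 3 B16F10 vehicle libraries and 9, 6 and 6 reads with IFNγ, at least 6.99-fold higher against a floor of 3 reads over the group. Its share of the 6694c2 mean over all 12 libraries was 16% ± 1.7 with IFNγ, where the 182 genes had a median of 0.328%. That mean spans the treatments, and Col6a3 in 6694c2 stood at a mean of 0.786 CPM with vehicle and 4.42 CPM with IFNγ. Itgb7 rose in B16F10 from 2, 6 and 5 reads to 22, 13 and 13 reads with IFNγ (log2 change 1.85, SE 0.58, adjusted p = 0.0097). Its share of the same kind of mean was 6.70% with IFNγ against 1.84% with vehicle. In 6694c2 itself, Itgb7 stood at a mean of 2.73 CPM with vehicle and 34.5 CPM with IFNγ. These shares therefore do not compare the lines within a treatment. Lama3 had 3 reads with vehicle and 26 with IFNβ, a ratio of 8.23 with a 95% counting interval of 2.52 to 42.5. Col4a1 and Col4a2, at 9.06% and 6.01% with vehicle, fell with IFNγ by 0.40 and 0.56 on the log2 scale in B16F10. Among the remaining calls, Col18a1 rose with IFNγ to 0.726%. Itga3 was called higher with IFNβ at 0.274%, which is below the median share of the 182 genes in those libraries (0.428% ± 0.19, SD, n = 3), and its libraries overlapped with vehicle. Col4a1 fell with IFNβ by 0.25 on the log2 scale. In 6694c2, 0 of the 18 genes over 10 times lower there were called by edgeR with any treatment, with 1, 1 and 4 at an unadjusted p under 0.05 with IFNγ, IFNβ and STING agonist, and 0 by DESeq2.

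Genes that modify or bind these proteins were counted from lists of partner genes. The share of all genes called in 6694c2 was 13.2% higher and 9.62% lower with IFNγ and 17.5% higher and 13.2% lower with IFNβ, and in B16F10 19.1% and 18.5% with IFNγ and 20.8% and 19.4% with IFNβ. In 6694c2, 6 of 10 collagen-processing genes rose with IFNγ and 6 with IFNβ, and 0 fell. With both interferons the prolyl hydroxylases P4ha1 and P4ha2, the lysyl hydroxylase Plod3 and the cross-linking oxidase Loxl2 were among them, the last from a mean of 64.2 to 108 CPM with IFNγ. In B16F10, 5 of 11 genes of this list rose and 4 fell with IFNγ, 2 rose and 4 fell with IFNβ, and 2 fell with STING agonist (background 2.69%). Serpinh1, the collagen chaperone, was among those that fell with each, from a mean of 552 to 435 CPM with IFNγ.

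The other lists held at most 16 genes each, and the same shares of all genes called are the background of each list. Of 16 integrin adaptors and kinases in 6694c2, 2 rose and 2 fell with IFNγ (backgrounds 13.2% and 9.62%). With IFNβ, 4 rose and 1 fell (backgrounds 17.5% and 13.2%), and Zyx and Bcar1 were higher with both interferons. In B16F10, 4 rose and 4 fell with IFNγ (backgrounds 19.1% and 18.5%) and 5 rose and 2 fell with IFNβ (backgrounds 20.8% and 19.4%). There Ilk, the kinase that binds integrin beta tails, and Ptk2, the focal adhesion kinase, rose with both. Of 7 matrix proteases and inhibitors in 6694c2, Mmp14 rose and Mmp15 fell with both interferons, and Mmp13, Timp1 and Timp2 rose and Mmp11 fell with IFNβ. In B16F10, 2 of 8 rose and 4 fell with IFNγ, and 2 rose and 1 fell with IFNβ, with the gelatinase gene Mmp2 higher with both.

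Of 12 other matrix ligands and partners in B16F10, 4 rose and 1 fell with IFNγ (backgrounds 19.1% and 18.5%). With IFNβ, 5 rose and 1 fell (backgrounds 20.8% and 19.4%), and Fn1, Thbs1 and the collagen receptors Ddr1 and Ddr2 were higher with both. In 6694c2, 3 of 10 rose and 1 fell with IFNγ (backgrounds 13.2% and 9.62%). With IFNβ, 4 rose and 1 fell (backgrounds 17.5% and 13.2%), and Fn1 was the gene that fell with each. Of 4 integrin ligands on cells in 6694c2, Icam1 and Vcam1 rose and Jam2 fell with IFNγ, while Cdh1 rose and Vcam1 and Jam2 fell with IFNβ. Of 2 such genes in B16F10, Icam2 rose with both interferons and Jam2 fell with IFNγ.

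With STING agonist in B16F10, 7 of the 49 partner genes counted were called by edgeR (backgrounds 2.12% higher and 2.69% lower), and 5 by DESeq2. Beside the collagen-processing genes that fell, Timp2, Bcar1, Hspg2 and Cd44 fell and Agrn rose by edgeR. In 6694c2, 0 of the 47 partner genes counted were called with STING agonist by edgeR (backgrounds 0.367% higher and 0.102% lower), with 6 at an unadjusted p under 0.05, and 1 by DESeq2.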

How the data were processed

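Bulk RNA sequencing was analysed from 24 libraries, with 3 in each of 8 groups. Single-cell samples of the series were not analysed here. The deposited values are raw counts of reads per gene, made by the authors with FastQC, MultiQC, cutadapt, STAR, Rsubread and, for their own comparisons, DESeq2. The submitters' notes name the build mm10, and the annotation, the use of strand and the handling of reads with several matches are not given in the sources used here. Counts per library ran from 15543131 to 32266795.

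Genes with at least 10 reads over the 24 libraries were kept (21138 of 49315). Within each line, edgeR 4.0.16 in R 4.3.3 fitted a quasi-likelihood model to its 12 libraries with TMM normalization, and the vehicle groups and the differences between lines in a treatment's effect were fitted over all 24. P-values were adjusted by Benjamini-Hochberg over all genes tested, and SE was the absolute log2 change divided by the square root of F. The procedure was tested on simulated counts for the same genes. With 3 libraries against 3 an exact permutation test of a single gene cannot go below p = 0.1, so the fit across all genes was used.

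The members and lists were chosen with earlier results of these data known. Genes given per library were the 6 called with the smallest p in each comparison, those called with the same treatment in both lines, the 10 with the largest called difference between vehicle groups, the chains of fixed complexes, and called genes over 10 times lower in a line. Other genes were named after their values were seen. 1 of the 52 genes and 1 interferon marker enter the counts and are not reported here by name. Partner lists (collagen processing, matrix proteases and inhibitors, integrin adaptors and kinases, other matrix ligands and partners, integrin ligands on cells) and markers (melanocyte, ductal epithelial, fibroblast, leukocyte, endothelial, interferon check) were counted.

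Replicate numbers were checked for pairing. Correlations of same-numbered deviations ran from -0.20 to 0.17, with 2 of 18 pairs over 0.1 in 6694c2 and 1 of 18 in B16F10, so the numbers were not taken to pair libraries. Replicates differed by more than sampling noise (chi-square per degree of freedom of at least 2.99). Alternatives were DESeq2 1.42.0, other filters, a robust fit, the 6 libraries compared alone, a bound of 5 times, a replicate block and leaving out each library. Exon lengths and coordinates were those given with the deposited counts. Of the 52 genes, 45 had the same start, end and strand in GENCODE M21 (GRCm38), and Itgb7 was among those that did not. Promoters were from RefSeq (GRCm38.p6), which had 39 of the 52 genes.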

Additional observations from a re-analysis of the deposited data

Results flagged for a closer look

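Effects of the same treatment that differed between the lines were found for Itga6, Itgb3, Itga7 and Itgb1bp1 by edgeR's test of the difference itself, adjusted over all genes. For IFNγ, the log2 effect in 6694c2 minus that in B16F10 was 0.49 for Itga6 (SE 0.094, adjusted p = 2.31e-04), -0.53 for Itgb3 (SE 0.13, adjusted p = 0.0036) and -1.40 for Itga7 (SE 0.46, adjusted p = 0.0455). For IFNβ, it was -0.50 for Itgb3 (SE 0.12, adjusted p = 0.0033), -1.66 for Itga7 (SE 0.45, adjusted p = 0.0097) and 0.33 for Itgb1bp1 (SE 0.11, adjusted p = 0.0335). The Itgb3 and Itga6 differences were called under all 18 alternatives. That of Itga7 with IFNγ was lost in 8 of 18, and with IFNβ without B16F10 vehicle replicate 3 (adjusted p = 0.0683), and that of Itgb1bp1 was lost in 8 of 18.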

How the results depend on the processing

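Of 148 called gene results, 114 kept their call and direction under every alternative, 34 lost the call at least once and 0 reversed. The 148 include the 23 higher and 26 lower calls between the vehicle groups, which were all kept. All 34 with a lost call were thus among comparisons of treatments and of their effects between lines. Over 1968 alternative fits, 1878 kept the call. Under the replicate block 0 called genes lost their call.

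Counts that moved by over 1.5 times were those near 0. With STING agonist in B16F10, genes called higher were 0, and 1 (Col10a1) with only the 6 libraries compared (range 0 to 1 without 1 library), and genes called lower were 1, and 2 (Itga9 and Itga4) with only the 6 libraries (range 1 to 2). With IFNγ in 6694c2, the 4 called higher ranged from 4 to 7, with 7 without vehicle replicate 1, and with STING agonist the 0 called higher ranged from 0 to 1, with Itgb4 called without that library. For the difference between lines with IFNγ, the 1 gene called higher became 3 by DESeq2 (with Itgb1 and Lamc1), 2 without a filter on low counts and 2 under the replicate block (with Lamc1), and ranged from 1 to 2, and the 2 called lower ranged from 1 to 2. With IFNβ, the 1 called higher became 2 without the filter (Itgav and Lamc1, in place of Itgb1bp1) and 2 under the replicate block (with Itgav), and ranged from 0 to 2, and the 2 called lower ranged from 1 to 2. The causes were not tested. Depth limits genes near 1 CPM, such as Itga7, Col9a1 and Col6a3, which rest on few reads per library.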

Other observations

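Low-level collagens of B16F10 also differed between the IFNβ and IFNγ groups, at the 1 dose used of each. Col7a1, the anchoring fibril collagen, stood at 2.11, 2.11 and 2.20 CPM with IFNγ and 3.82, 3.63 and 3.98 CPM with IFNβ (log2 difference 0.83, SE 0.20, adjusted p = 8.65e-04 by edgeR), and neither group was called against vehicle, at 3.23, 2.38 and 2.51 CPM. Col1a2 and Col2a1 were higher with IFNβ than with IFNγ by 0.88 and 1.08 on the log2 scale, on 13 to 74 reads per library. Col1a2 was not called without IFNβ replicate 1 (adjusted p = 0.113), and Col2a1 was not called without IFNγ replicate 1, IFNγ replicate 3 or IFNβ replicate 2 (adjusted p up to 0.122).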
